A study of Mus musculus with 12 samples.

Results

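Gene expression of the core spliceosome was examined in germ cells and somatic cells sorted from newborn mouse testes. The genes were taken from the count table by symbol: protein-coding genes whose name begins with Snrp, Sf3a, Sf3b, Prpf, Lsm followed by a digit, or U2af. This gave 50 of the 54532 genes counted, and 9 groups by subcomplex: 8 genes of the Sm ring, 5 of the U1 snRNP and its partners, 2 of the U2 snRNP core, 9 of SF3a and SF3b, 3 of U2AF, 5 of the U4/U6 and U5 tri-snRNP, 5 activation and step factors, 7 of the LSm2-8 ring and 6 other LSm genes.

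The study sequenced polyadenylated RNA from 12 libraries in 4 groups of 3: germ cells after dex, germ cells after saline, and the somatic cells of each treatment. All mice were of the strain Tg(Pou5f1-EGFP)2Mnn, in which the Pou5f1 (OCT4) promoter drives EGFP, and cells of testes taken on postnatal day 1 were sorted into OCT4-GFP positive germ cells and OCT4-GFP negative somatic cells. The dex groups had received dexamethasone (dex), a synthetic agonist of the glucocorticoid receptor, at 10 µg per gram of body weight through the dam at E17.5 and E18.5 (embryonic days) and under the skin of the pup on postnatal day 0, while the saline groups had received saline on the same days. Each library came from testes pooled over more than 1 litter, the litters having been dosed separately, so it stands for several animals.

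The spliceosome removes introns from pre-mRNA and is assembled anew on each intron from small nuclear ribonucleoproteins (snRNPs), each made of a small nuclear RNA and its proteins. The U1 snRNP recognises the 5′ splice site, U2AF and then the U2 snRNP recognise the branch site and 3′ splice site, and the U4/U6 and U5 tri-snRNP joins before the complex is activated. A ring of Sm proteins is shared by U1, U2, U4 and U5, whereas U6 carries the LSm2-8 ring.

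The promoters of the 5 genes with the lowest dex-to-saline ratio in germ cells are printed here, because dex acts through a DNA-binding receptor, although none of them was called. A promoter window, covering 250 bases before and 50 bases after the RefSeq transcription start, was found for 40 of the 50 genes (51 windows, build GRCm38.p6). Each stretch below is the part of the 250 bases nearest the gene that overlaps no exon of GENCODE M21, 5′ to 3′ on the strand of the gene. Capitals mark CCGGAAG, the motif of ETS factors, or the 10-base motif of NRF1, on either strand.
Lsm7, chr10:80855210-80855274, minus strand: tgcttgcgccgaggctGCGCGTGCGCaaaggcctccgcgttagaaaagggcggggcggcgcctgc
Prpf31, chr7:3629930-3629984, plus strand: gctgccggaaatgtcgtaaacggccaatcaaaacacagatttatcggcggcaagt
Snrpd2, chr7:19149588-19149721, plus strand: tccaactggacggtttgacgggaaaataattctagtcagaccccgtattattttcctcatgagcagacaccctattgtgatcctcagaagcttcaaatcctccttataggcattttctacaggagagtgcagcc
Snrpf, chr10:93589771-93589908, minus strand: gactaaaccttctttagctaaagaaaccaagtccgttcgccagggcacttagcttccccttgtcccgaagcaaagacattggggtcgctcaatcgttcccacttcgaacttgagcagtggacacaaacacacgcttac
Lsm5, chr6:56704711-56704949, minus strand: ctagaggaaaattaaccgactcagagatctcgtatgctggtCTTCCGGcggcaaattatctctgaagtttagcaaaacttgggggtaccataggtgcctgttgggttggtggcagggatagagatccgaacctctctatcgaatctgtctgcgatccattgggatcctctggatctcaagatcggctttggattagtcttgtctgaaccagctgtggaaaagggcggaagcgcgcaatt

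In all, 8 motifs were searched on both strands of the 300-base windows. The palindromic glucocorticoid receptor motif was in 0 of the 51 windows. It was in 0.354% of the windows of protein-coding genes tested in germ cells and in 0.475% of all 32851 windows. At so low a share, 0 of 51 windows cannot set these genes apart from others. The ETS motif was in 16 windows (31.4%, against 15.3% of the 14992 windows of protein-coding genes tested in germ cells), and the NRF1 motif in 12 (23.5%, against 8.68%). The YY1 motif ATGGCGG was in 8 windows (15.7%, against 6.97%) and the CRE TGACGTCA in 3 (5.88%, against 2.84%). The TATA box TATAAA was in 3 windows (5.88%, against 7.42%), the CCAAT box in 22 (43.1%, against 37.6%) and the Sp1 box GGGCGG, which can share bases with ATGGCGG, in 28 (54.9%, against 59.8%). A match gives letters only and was not tested as a binding site. In 12 of the 51 windows (23.5%, against 8.49%) a protein-coding transcript of the opposite strand began within the 250 bases. These windows belonged to 11 genes, among them Lsm7, whose stretch above begins next to an exon of Sppl2b, and Prpf31, whose stretch begins next to an exon of Tfpt.

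Library totals lay between 18459692 and 25178477 counts, and no library was a copy of another. Levels are given as CPM, counts scaled to a common library size over the 12 libraries, and levels of different genes are compared only as FPKM, which also divides by gene length. The word called means an adjusted p of 0.05 or less (Benjamini-Hochberg over all genes tested) in edgeR's quasi-likelihood test of 3 against 3 libraries. The sorted populations matched their labels: the summed CPM of 6 germ cell markers was 2102 to 2366 in germ libraries and 3.19 to 23.8 in somatic libraries, and that of 6 Sertoli cell markers was 32.5 to 59.9 in germ libraries and 3615 to 4294 in somatic libraries. The germ marker sum was 3.19 to 5.59 in saline somatic and 14.2 to 23.8 in dex somatic libraries. Of these markers, Zbtb16 had 11, 51 and 16 counts in saline somatic and 355, 458 and 254 in dex somatic libraries. It was the 1 of the 3 markers tested there that was higher with dex. The 2 lower were Dazl, with 23, 46 and 22 counts in saline somatic and 13, 8 and 20 in dex somatic libraries, and Ddx4, with 34, 23 and 29 against 16, 10 and 8. In bulk RNA, fewer cells of a type and less RNA per cell cannot be told apart. The 50 genes together took 0.715 to 0.766% of the counts of germ libraries and 0.493 to 0.525% of those of somatic libraries.

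**Figure D1:**
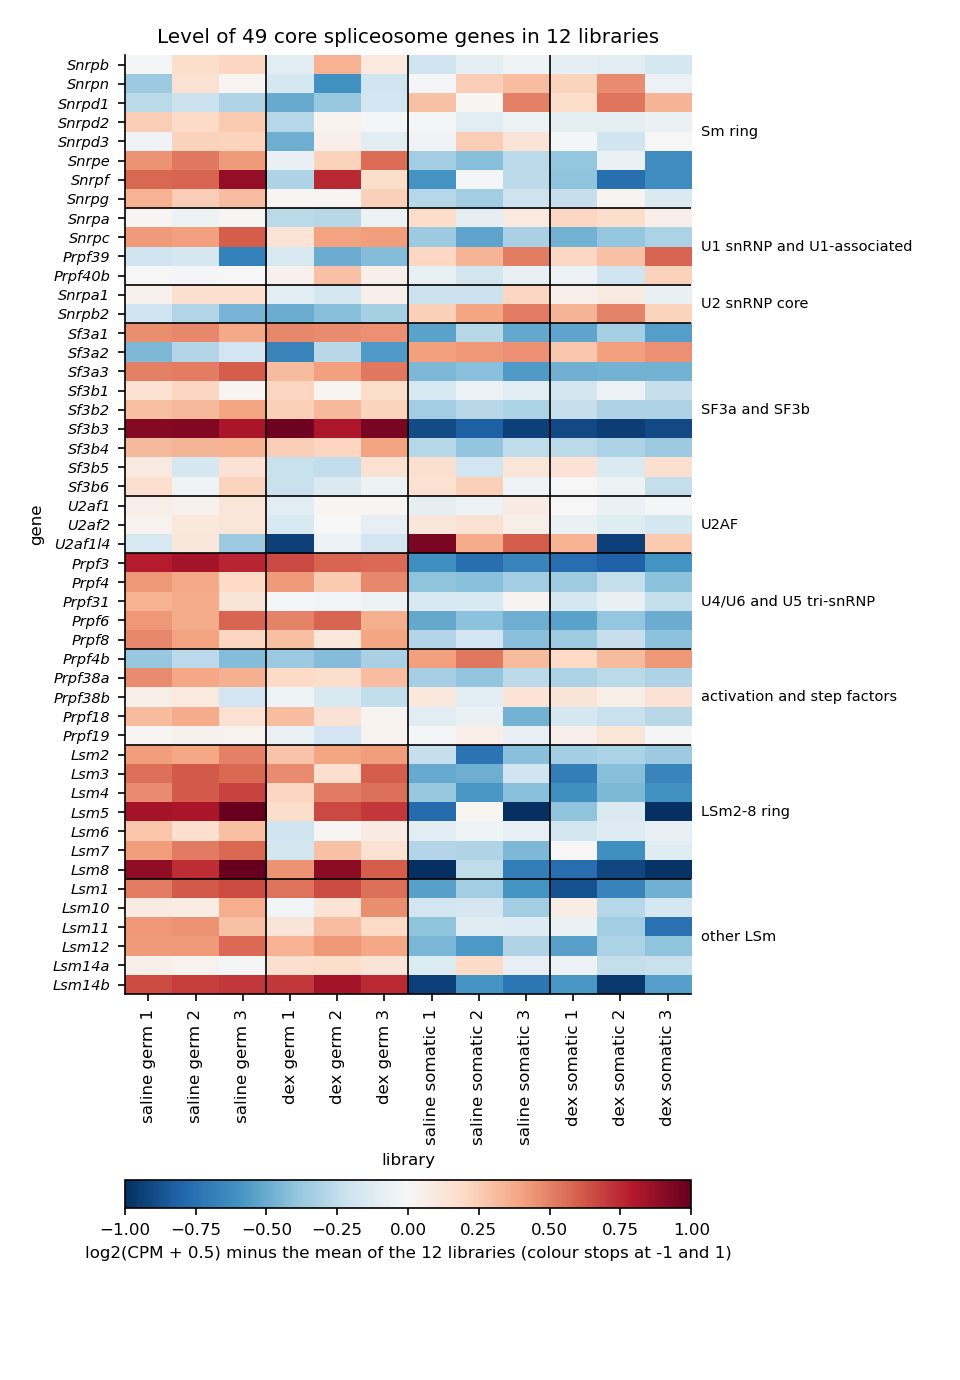
Level of 49 of the 50 genes (rows, by subcomplex) in each of the 12 libraries (columns), as log2(CPM + 0.5) minus the mean of that gene over the 12 libraries, with colour from -1 to 1. Most rows are red in the 6 germ libraries and blue in the 6 somatic libraries. Among the rows that run the other way are those of Snrpd1, Prpf39, Snrpb2, Sf3a2 and Prpf4b. The row of U2af1l4 does so in saline and that of Snrpn in dex.

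Per length, the levels of the subunits spanned a wide range. The highest mean over the 12 libraries together was that of Snrpb, which encodes the SmB protein, with 162 ± 14.2 FPKM in saline germ cells and 132 ± 7.62 in saline somatic cells (mean ± SD, n = 3). Snrpn, its close relative known from brain, had 4.74 ± 0.89 FPKM in saline germ cells and 5.41 ± 0.606 in saline somatic cells. Sf3b2, a large SF3b subunit, was next in that mean and within the spread of Snrpb in saline germ cells, with 165 ± 6.26 FPKM there and 101 ± 1.49 in saline somatic cells. Its place depends on the length used, which is 3231 bases in the count table, while its exons in GENCODE M21 cover 6822. At the other end, U2af1l4, a relative of the small U2AF subunit, stayed at 0.227 ± 0.087 FPKM in saline germ cells and 0.585 ± 0.189 in saline somatic cells. It had 0 counts in dex germ library 1, which allows up to 3 counts (0.141 CPM), and in dex somatic library 2 (up to 0.148 CPM), limits that cover counting error only. Lsm11, a U7 snRNP protein of histone mRNA processing, was the next lowest, with 4.53 ± 0.248 FPKM in saline germ cells.

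Germ and somatic cells were compared within each treatment, and the saline and dex comparisons share no library. In saline, 29 of the 50 genes were higher in germ cells, where 39.8% of the 18870 genes tested were called germ-high. Another 6 were higher in somatic cells, where 36.7% of all genes were called. The median log2 fold change of the 50 genes, germ over somatic, was 0.473, beside 0.0716 over all genes tested. In dex, 26 of the 49 genes tested were higher in germ cells (40.5% of all genes) and 9 were higher in somatic cells (35.7%), with a median of 0.263 beside 0.119. Thus 24 genes were called germ-high in both treatments and 5 somatic-high in both, 5 were called germ-high in saline only and 2 in dex only, and 4 were called somatic-high in dex only. U2af1l4, called somatic-high in saline, was not tested in dex. None was called in opposite directions. The difference between the treatments is tested below, and each comparison here shares 3 libraries with each dex comparison of the same cells. Scaling by library totals moved the median of all genes from 0.0716 to 0.207 in saline and from 0.119 to 0.302 in dex, and the calls among the 50 genes then became 32 germ-high and 6 somatic-high in saline, and 30 and 6 in dex. Over all genes, 8078 and 6397 of 18870 were then called in saline, and 8365 and 6017 of 18778 in dex.

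**Figure D2:**
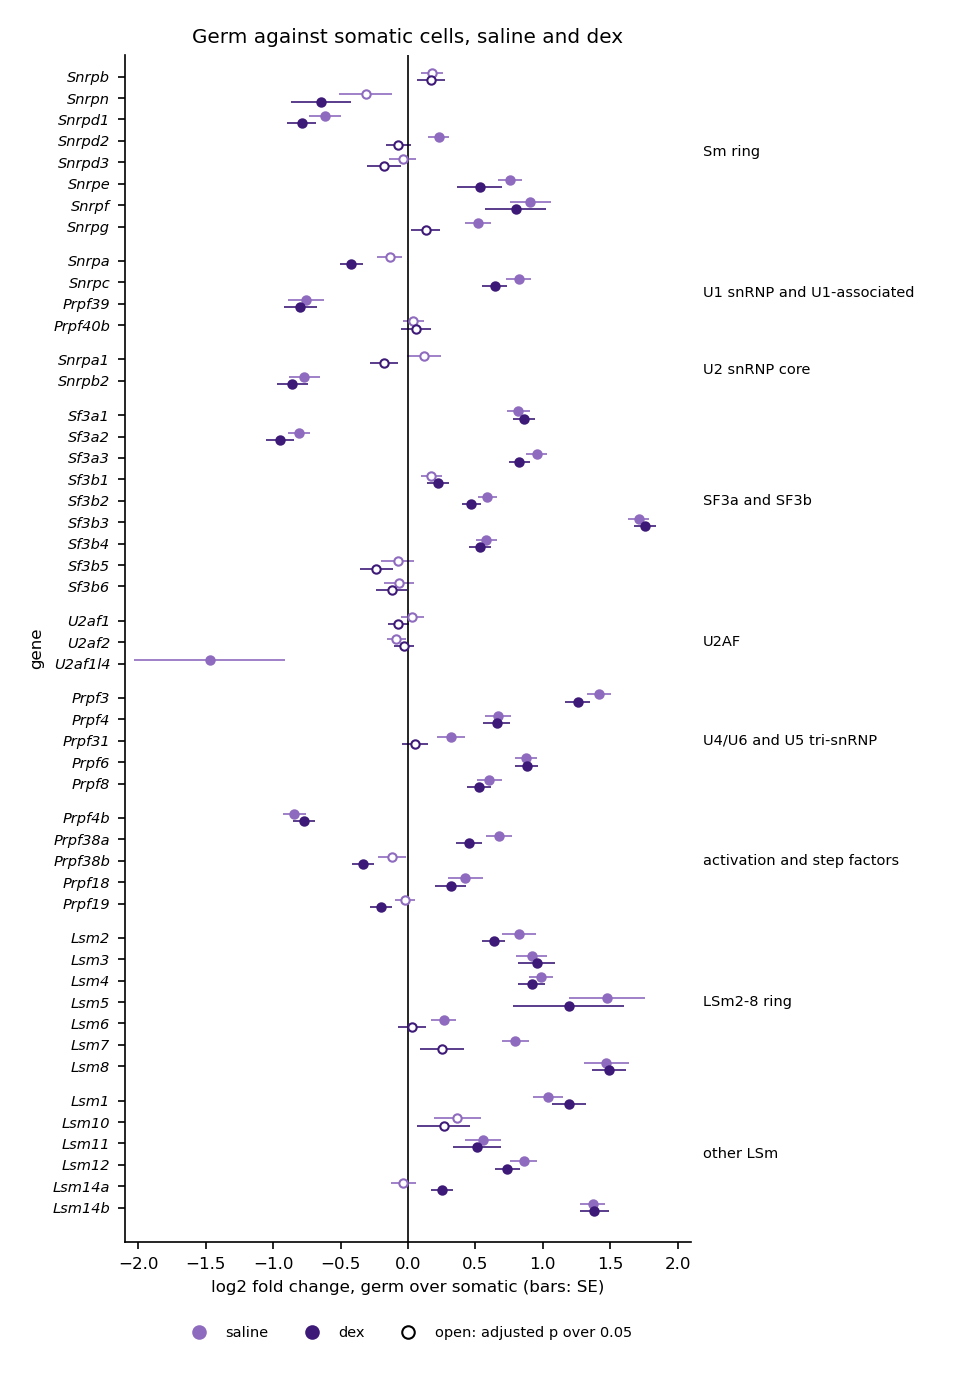
Log2 fold change of germ over somatic cells for 49 of the 50 genes (rows, by subcomplex) in saline (light) and dex (dark), with bars of 1 standard error. Filled points had an adjusted p at or under 0.05. All 5 tri-snRNP genes and all 7 LSm2-8 genes lie to the right of 0 in both treatments, and U2af1l4 has no dex point. In dex with the length correction, whose limit is given below, 4 and 6 of them do.

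The U4/U6 and U5 tri-snRNP had all 5 genes called germ-high in saline (39.8% of all genes) and 4 of 5 in dex (40.5%). Prpf3, a U4/U6 protein, was at 124, 129 and 122 CPM in the saline germ libraries and at 46.8, 42.5 and 45.3 in the saline somatic libraries, a log2 fold change of 1.42 (SE 0.087, adjusted p = 1.94e-08). The 6 dex libraries gave a change of the same sign, 1.26 (SE 0.092, adjusted p = 8.22e-08). Neither pair of groups overlapped. Prpf6, the bridging factor of the tri-snRNP, differed by 0.88 (SE 0.081, adjusted p = 8.66e-07) in saline. Prpf4, the partner of Prpf3, differed by 0.67 and Prpf8, the large U5 protein at the catalytic centre, by 0.60. Prpf31, which holds the U4/U6 snRNP to U5, had the smallest difference of these genes, and its log2 fold change was 0.32 (SE 0.10, adjusted p = 0.0153) in saline and 0.051 (SE 0.097, adjusted p = 0.643) in dex, where library totals gave a call (adjusted p = 0.0382).

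The LSm2-8 ring, which binds the 3′ end of U6, had 7 of 7 genes called germ-high in saline (39.8% of all genes) and 5 of 7 in dex (40.5%). Lsm8, the subunit that sets this nuclear ring apart from the cytoplasmic ring, was at 98.1, 88.2 and 110.2 CPM in the saline germ libraries. In the saline somatic libraries it was at 25.5, 44.3 and 32.5 CPM, all below the germ libraries. Its log2 fold change was 1.47 (SE 0.17, adjusted p = 5.3e-06) in saline and 1.49 (SE 0.13, adjusted p = 3.75e-07) in dex. Lsm5, the lowest of the ring per length, was at 12.9, 12.8 and 15.7 CPM in saline germ and at 3.94, 7.15 and 3.1 CPM in saline somatic libraries. The size of its difference depended on how its reads were placed. Its log2 fold change of 1.48 (SE 0.28, adjusted p = 0.00043) in saline became 0.60 (SE 0.15, adjusted p = 0.00249) once the counts of 2 processed pseudogenes with the same sequence in part, Gm7846 and Gm10074, were added to it. In dex its change of 1.19 (SE 0.41, adjusted p = 0.0191) lost its call without dex germ replicate 2 (adjusted p = 0.0627) or 3 (adjusted p = 0.0633). Lsm4, the highest of the ring, was at 151 ± 11.6 FPKM in saline germ and 70.1 ± 7.31 in saline somatic cells. Lsm2, Lsm3 and Lsm4 were called germ-high in both treatments, while Lsm6 and Lsm7 were called in saline only (log2 fold change 0.26 and 0.80, against 0.028 and 0.25 in dex). With pseudogene counts added, Lsm7 had 0.50 (SE 0.12, adjusted p = 0.00201) in saline and 0.091 (SE 0.11, adjusted p = 0.464) in dex, and by library totals it was called in dex as well (0.435, adjusted p = 0.0377).

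Among the other LSm genes, Lsm1, which replaces Lsm8 in the cytoplasmic ring of mRNA decay, was called germ-high in both treatments. Its CPM was 51.6, 55.5 and 57 in saline germ and 24.6, 28.2 and 23.6 in saline somatic libraries, and its log2 fold change was 1.04 (SE 0.11, adjusted p = 3.4e-06) in saline. Lsm14b, a translation repressor of RNA granules and no spliceosome subunit, was at 193, 199 and 201 CPM in saline germ and 63.8, 81.4 and 74 CPM in saline somatic libraries. The log2 fold change of this gene was 1.37 (SE 0.091, adjusted p = 4.28e-08) in saline and 1.38 (SE 0.11, adjusted p = 1.34e-07) in dex, whereas its paralogue Lsm14a had -0.035 (SE 0.091, adjusted p = 0.74) and 0.25 (SE 0.081, adjusted p = 0.0131), a dex call lost with a correction for gene length (0.101, adjusted p = 0.266). Lsm11 and Lsm12 were called germ-high in both treatments as well, though Lsm11 lost its dex call with that correction (0.347, adjusted p = 0.0974), and Lsm10, the U7 partner of Lsm11, was called in neither, but in saline under DESeq2 size factors (adjusted p = 0.0279) and library totals (adjusted p = 0.0187).

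SF3a and SF3b, the U2 subcomplexes that hold the branch site, had 5 of 9 genes called germ-high and 1 somatic-high in saline (39.8% and 36.7% of all genes). In dex they had 6 and 1 (40.5% and 35.7%). Sf3b3, a scaffold of SF3b, had the largest germ-high difference of the 50 genes. It was at 823, 828 and 765 CPM in the saline germ libraries and at 234, 246 and 227 CPM in the saline somatic libraries, a log2 fold change of 1.71 (SE 0.077, adjusted p = 1.18e-09), and in dex the change was 1.76 (SE 0.08, adjusted p = 9.28e-10). Sf3a1 and Sf3a3 were also called germ-high in both treatments (0.82 and 0.95 in saline). The third SF3a subunit went the other way. Sf3a2 was at 93.2, 104 and 112 CPM in saline germ and 169.5, 172 and 175 CPM in saline somatic libraries, and its log2 fold change was -0.81 (SE 0.083, adjusted p = 2.43e-06) in saline and -0.95 (SE 0.10, adjusted p = 3.49e-06) in dex. Of its exon bases, 16.1% lie in exons of Plekhj1 on the opposite strand. Sf3b2 and Sf3b4 were called germ-high in both treatments. Sf3b1, which contacts the branch site, had a log2 fold change of 0.17 (SE 0.078, adjusted p = 0.0598) in saline and 0.22 (SE 0.085, adjusted p = 0.0309) in dex. These calls moved with the settings: in saline the paired fit called it (adjusted p = 0.0424), as did DESeq2 size factors and library totals, and in dex the length correction lost the call (0.0335, adjusted p = 0.73). Sf3b5 and Sf3b6 were not called in either treatment.

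The U2 snRNP core had 1 of 2 genes called somatic-high in both treatments, where 36.7% of all genes were in saline and 35.7% in dex. The activation and step factors had 2 of 5 called germ-high in both treatments, near the share of all genes (39.8% and 40.5%). Another 1 was called somatic-high in saline and 3 in dex. Snrpb2, which binds U2 RNA, was at 39.3, 36.9 and 32.7 CPM in saline germ and 53.5, 59.7 and 64.6 CPM in saline somatic libraries, with a log2 fold change of -0.77 (SE 0.11, adjusted p = 5.98e-05) in saline and -0.86 (SE 0.11, adjusted p = 1.88e-05) in dex. Its partner Snrpa1 was called in neither treatment. Prpf4b, a kinase acting at activation, had the lowest germ-to-somatic ratio in saline after U2af1l4. Its level was 105, 114 and 101 CPM in saline germ and 182, 197 and 170.0 CPM in saline somatic libraries, a log2 fold change of -0.84 (SE 0.085, adjusted p = 1.96e-06), with -0.77 (SE 0.083, adjusted p = 3.2e-06) in dex. Prpf38a and the second-step factor Prpf18 were called germ-high in both treatments, and Prpf18 lost its dex call with the length correction (0.231, adjusted p = 0.0758). Prpf38b was called somatic-high in dex only, with -0.33 (SE 0.081, adjusted p = 0.00257), and not by library totals (adjusted p = 0.116). Prpf19, the ubiquitin ligase of the activation complex, had -0.021 (SE 0.072, adjusted p = 0.8) in saline and -0.20 (SE 0.083, adjusted p = 0.0416) in dex, and the dex call was lost under DESeq2 size factors (adjusted p = 0.282) and library totals (adjusted p = 0.825).

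In the Sm ring, 4 of 8 genes were called germ-high in saline and 1 somatic-high, where 39.8% and 36.7% of all genes were. In dex, Snrpe and Snrpf were called germ-high, Snrpe not with the length correction (0.32, adjusted p = 0.11), and Snrpd1 and Snrpn somatic-high, Snrpn not by library totals (adjusted p = 0.0739). Snrpf was at 48.7, 48.9 and 60.3 CPM in saline germ and 21.3, 32.2 and 27 CPM in saline somatic libraries, a log2 fold change of 0.91 (SE 0.15, adjusted p = 0.000144). Snrpe and Snrpg had 0.76 and 0.52, and Snrpd2 0.23. Snrpd1, a neighbour in the same ring, was the somatic-high gene. It was at 68.9, 71.8 and 67.4 CPM in saline germ and 102, 84.5 and 118 CPM in saline somatic libraries, with a log2 fold change of -0.62 (SE 0.12, adjusted p = 0.000443) in saline and -0.79 (SE 0.11, adjusted p = 3.36e-05) in dex. Snrpb missed the threshold in both treatments (0.18, SE 0.082, adjusted p = 0.0673 in saline). In saline it was called germ-high by the fit that paired libraries by replicate number (adjusted p = 0.0372), and under DESeq2 size factors it was called in both treatments. Among the U1 genes, Snrpc was called germ-high in both treatments, and Prpf39, an alternative splicing factor of U1, was called somatic-high in both. Prpf39 was at 68.6, 70.3 and 49.3 CPM in saline germ and 91.2, 100.2 and 113 CPM in saline somatic libraries, a log2 fold change of -0.76 (SE 0.13, adjusted p = 0.000258). Snrpa, a stem-loop binding protein of U1, had -0.14 (SE 0.091, adjusted p = 0.188) in saline and -0.42 (SE 0.088, adjusted p = 0.000865) in dex. U2af1 and U2af2, the subunits that read the 3′ splice site, were called in neither treatment. With a correction for gene length, U2af1 was called somatic-high in both (log2 fold change -0.211 in saline and -0.344 in dex).

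Dex and saline germ cells were compared to ask whether the splicing machinery of germ cells differs after glucocorticoid exposure. None of the 49 genes tested was called by edgeR, where 1.25% of the 18550 genes tested were. The direction was uneven: 39 of the 49 genes were lower with dex (79.6%, against 50.4% of all genes tested), and the median log2 fold change was -0.13, beside -0.00273 over all genes. At an unadjusted p of 0.05 or less stood 15 of the 49, all lower with dex, where 7.69% of all genes met that rule and were lower. In 12 genes the dex libraries all lay below the saline libraries (9.3% of all genes), and in 2, Prpf40b and Lsm14a, above them (10.8%). DESeq2 on the same libraries called 3 of the 49 (3.83% of all genes): Snrpd2, Prpf31 and Lsm7, all lower with dex.

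**Figure D3:**
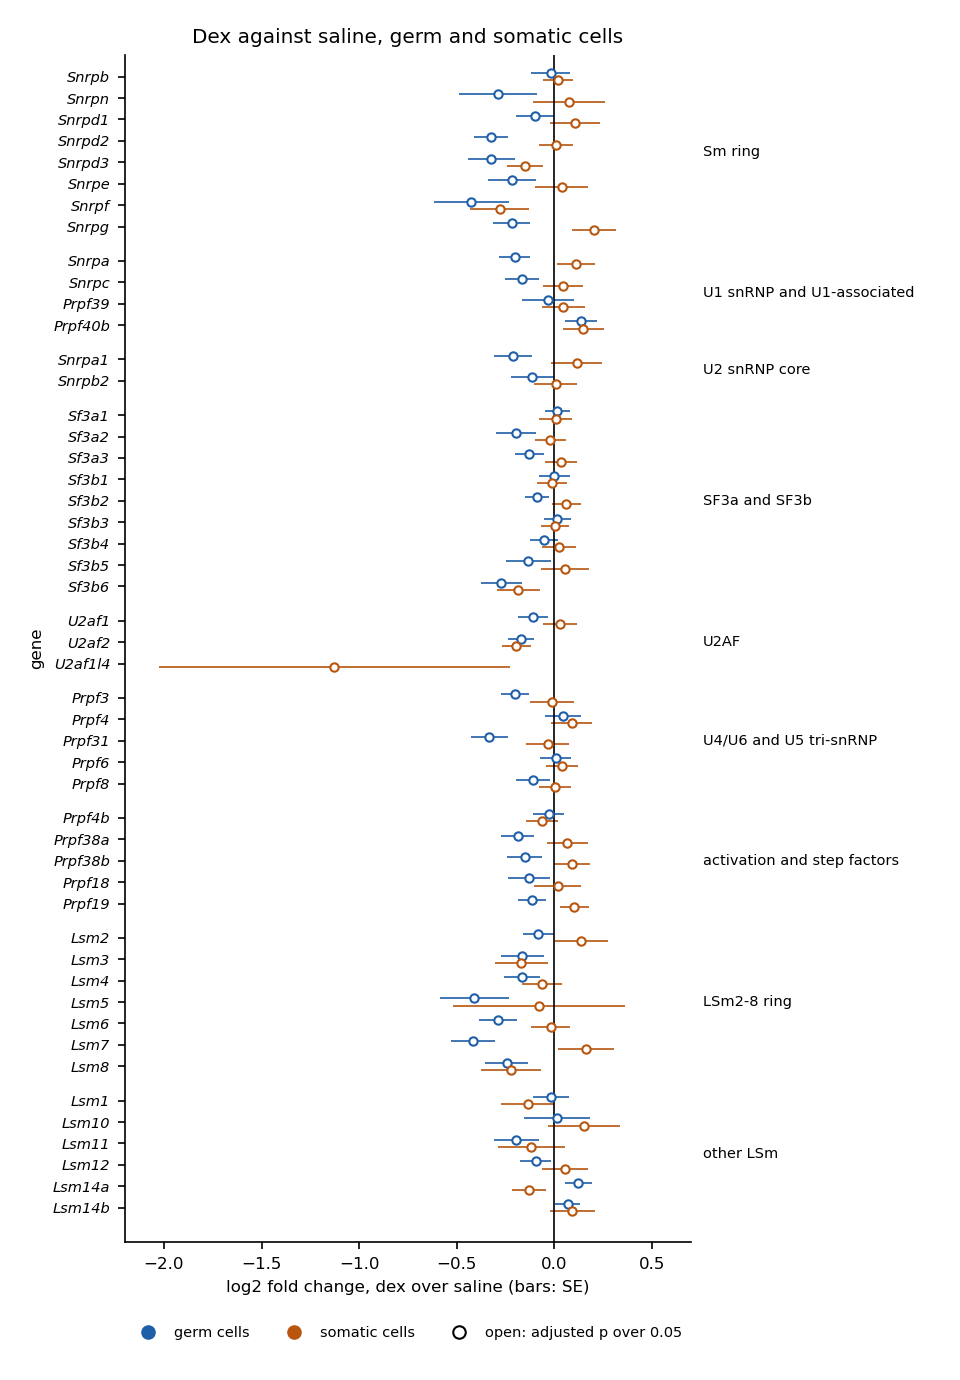
Log2 fold change of dex over saline for 49 of the 50 genes (rows, by subcomplex) in germ cells (blue) and somatic cells (orange), with bars of 1 standard error. All points are open, since none had an adjusted p at or under 0.05. The blue points of all 8 Sm genes (7 by library totals) and all 7 LSm2-8 genes lie left of 0, and U2af1l4 has no blue point.

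All 8 Sm ring genes, or 7 of the 8 by library totals, were lower with dex in germ cells, with a median log2 fold change of -0.254 and none called. Snrpd2, which forms a heterodimer with SmD1 in the ring, was at 81.5, 102 and 98.1 CPM in the dex germ libraries and at 118, 113 and 119 CPM in the saline germ libraries. The groups did not overlap, and the log2 fold change was -0.33 (SE 0.088, adjusted p = 0.0863), with an adjusted p between 0.0206 and 0.28 over the alternatives. Snrpf had the lowest ratio of the 49. It was at 26.1, 55.2 and 36.7 CPM with dex and 48.7, 48.9 and 60.3 CPM with saline, and dex germ library 2 lay among the saline libraries. Its log2 fold change was -0.43 (SE 0.19, adjusted p = 0.319), and without dex germ replicate 2 it was -0.752 and called (adjusted p = 0.0226). Snrpd3 and Snrpg also had an unadjusted p at or under 0.05, with log2 fold changes of -0.32 and -0.22. Snrpb, the most abundant of the ring, differed by -0.02 (SE 0.098, adjusted p = 0.953).

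All 7 genes of the LSm2-8 ring were lower with dex in germ cells too, with a median of -0.244 and none called, and this count of 7 held under each of the other scalings. Lsm7 was at 40.5, 56.5 and 51.2 CPM with dex and 61.7, 66.4 and 68.7 CPM with saline. The groups did not overlap, and the log2 fold change was -0.42 (SE 0.11, adjusted p = 0.0886), with an adjusted p between 0.00774 and 0.263 over the alternatives. Lsm6 was at 49.3, 57.3 and 60.0 CPM with dex and 68.7, 63.6 and 69.9 CPM with saline, again with no overlap, and its log2 fold change was -0.29 (SE 0.096, adjusted p = 0.163). Lsm5 was at 8.04, 11.5 and 11.8 CPM with dex and 12.9, 12.8 and 15.7 CPM with saline, a log2 fold change of -0.41 (SE 0.18, adjusted p = 0.299). Lsm8 was at 72.5, 98.7 and 80.8 CPM with dex and 98.1, 88.2 and 110.2 CPM with saline, where dex germ library 2 lay inside the saline range, and its log2 fold change was -0.24 (SE 0.11, adjusted p = 0.322). Outside this ring, Lsm1, Lsm10, Lsm11 and Lsm12 had log2 fold changes of -0.019, 0.015, -0.19 and -0.097.

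In the tri-snRNP, 3 of 5 genes were lower with dex and 2 of these had an unadjusted p at or under 0.05. Prpf31 was at 56.9, 56.5 and 55.6 CPM in the dex germ libraries and at 73.6, 74.7 and 63.1 CPM in the saline germ libraries. The dex libraries sat within a narrow band below all saline libraries, and the log2 fold change was -0.33 (SE 0.094, adjusted p = 0.0992), with an adjusted p between 0.0311 and 0.336 over the alternatives. Prpf3 was at 114, 108 and 107 CPM with dex and 124, 129 and 122 CPM with saline, a log2 fold change of -0.20 (SE 0.073, adjusted p = 0.198). Prpf4, Prpf6 and Prpf8 had 0.044, 0.0056 and -0.11.

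**Figure D4:**
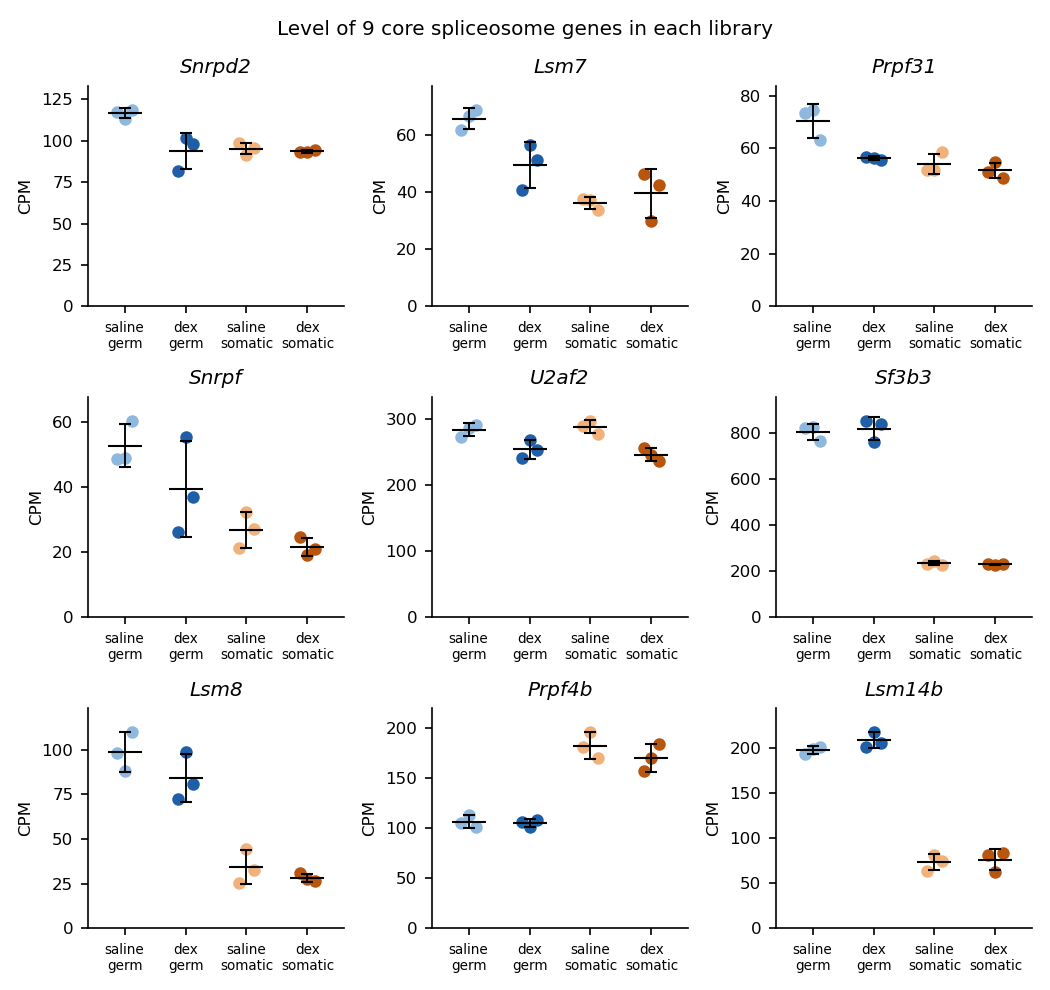
CPM of 9 genes in each library (points) by group, with the mean and 1 SD of 3 libraries in black. In Snrpd2, Lsm7 and Prpf31 all dex germ points lie below all saline germ points, and in Snrpf 1 dex germ point does not. Sf3b3, Lsm8 and Lsm14b are higher in germ cells and Prpf4b is higher in somatic cells.

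The next genes encode proteins that find the branch site and the 3′ splice site. The 9 SF3a and SF3b genes had a median log2 fold change of -0.0894 in germ cells, from -0.27 for Sf3b6 to 0.015 for Sf3a1. Sf3b6, the branch-site contact known as p14, was at 37.6, 39.7 and 42.4 CPM with dex and 49.5, 42.8 and 51.2 CPM with saline, without overlap, a log2 fold change of -0.27 (SE 0.10, adjusted p = 0.228). Sf3b1 was at 507, 444 and 495 CPM with dex and 486, 507 and 443 CPM with saline, and Sf3b3 at 856, 762 and 841 CPM and 823, 828 and 765 CPM. In both genes the groups overlapped, and the standard errors of their log2 fold changes were 0.078 and 0.068. U2af2, which binds the polypyrimidine tract, was at 240.3, 268 and 252 CPM with dex and 273, 286 and 291 CPM with saline, a log2 fold change of -0.17 (SE 0.067, adjusted p = 0.24). Its partner U2af1 had -0.11. Snrpa1 of the U2 core differed by -0.21 (SE 0.096, adjusted p = 0.32).

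Among the U1 genes, Snrpa was at 120.4, 120.1 and 140.2 CPM with dex and 148, 141 and 147 CPM with saline, a log2 fold change of -0.20 (SE 0.079, adjusted p = 0.233) without overlap. Prpf40b, a U1-associated WW-domain protein, was at 113, 134 and 113 CPM with dex and 109, 108 and 109 CPM with saline. The dex libraries lay above the saline libraries, but the log2 fold change of 0.13 (SE 0.082, adjusted p = 0.486) was not called. All 5 activation and step factors were lower, from -0.19 for Prpf38a to -0.029 for Prpf4b. Lsm14a was at 148, 150.2 and 145 CPM with dex and 138, 136 and 131 CPM with saline, a log2 fold change of 0.12 (SE 0.07, adjusted p = 0.456), and Lsm14b had 0.067 (SE 0.066, adjusted p = 0.7).

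The germ cell counts leaned on 1 library. The median over the 50 genes of log2 CPM, each centred on the mean of the 12 libraries, was 0.0326, 0.17 and 0.178 in dex germ libraries 1 to 3 and 0.319, 0.356 and 0.242 in saline germ libraries 1 to 3. The groups did not overlap, and dex germ library 1 was the lowest. Without replicate 1 of dex germ, 4 genes rather than 15 had an unadjusted p at or under 0.05, all lower, and the median log2 fold change was -0.0859. Over all genes, 1140 of the 19183 tested then met that rule and were lower. With any other library of the comparison left out, 10 to 19 genes met that rule, all lower with dex. Over all genes, 1075 to 1556 of the 19195 to 19358 tested met it and were lower.

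Some other measures moved with these values in germ cells. The summed CPM of 18 mitosis genes was 2667 to 3226 in dex germ and 3334 to 3629 in saline germ libraries, with 18 of 18 lower. In somatic cells all 18 were lower as well (1803 to 1981 against 2263 to 2430 CPM), where 19 of the 50 spliceosome genes were lower. The 4 Leydig cell markers tested were lower too, and the 6 Leydig markers summed to 4.83 to 8.79 CPM in dex germ and 9.07 to 11.8 CPM in saline germ libraries. The 6 Sertoli cell markers, none of them at 0, summed to 32.5 to 40.7 CPM in dex germ and 52.3 to 59.9 CPM in saline germ libraries, with 6 of 6 lower. The 4 erythroid markers summed to 4.44 to 7.06 CPM in dex germ and 7.56 to 9.13 CPM in saline germ libraries, and the 3 tested were lower. Sums of other lists overlapped. The 6 peritubular and stromal markers had 106.7 to 110.5 CPM in dex germ and 94.55 to 128.8 CPM in saline germ libraries (4 higher, 2 lower). The 5 endothelial markers had 53.28 to 66.47 and 55.39 to 61.24 CPM (2 higher, 3 lower). The macrophage markers had 4.30 to 4.89 and 3.52 to 6.68 CPM (the 2 tested lower). Of the 6 germ cell markers 3 were higher and 3 lower. The part of any of these in the values of the spliceosome genes was not tested.

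Gene length moved with both contrasts. Length here is that of the count table, which gives U2af1 974 and Snrpd1 837 bases. Their exons in GENCODE M21 cover 2598 and 2052 bases. Among protein-coding genes whose average log2 CPM was 5 or more, the median log2 fold change of dex over saline in germ cells ran from -0.124 for the 76 genes of 1000 bases or less to 0.0101 for the 2641 genes of over 6000 bases. The 5 spliceosome genes of 1000 bases or less had a median of -0.11, no lower than that of all genes of that length. The 12 of over 6000 bases had a median of -0.0312 with 7 lower, and the 11 of over 2000 and up to 3000 bases had a median of -0.164 with 10 lower, where all genes of that length had -0.0397. A correction took out of each library a trend on length fitted to all genes tested, of any type and level. With it, 42 of the 49 genes were lower with dex, the median was -0.132, and 12 had an unadjusted p at or under 0.05, all lower. Of the 18550 genes tested, 1478 met that rule and were lower. The fitted trend need not be that of the ranges above. Results with this correction therefore do not show what remains once the trend of those ranges is removed. For germ against somatic cells the trend was steeper, from -0.569 to 0.177 in saline. The same correction gave 29 germ-high and 7 somatic-high genes in saline, and 21 and 10 in dex, where the median was 0.101 rather than 0.263. Over all genes it gave 7318 and 7188 of 18870 in saline, and 7174 and 7172 of 18778 in dex. U2af1, of 974 bases in the count table, went from 0.033 to -0.211 in saline with it, although genes of 1000 bases or less had a median of -0.569.

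**Figure D5:**
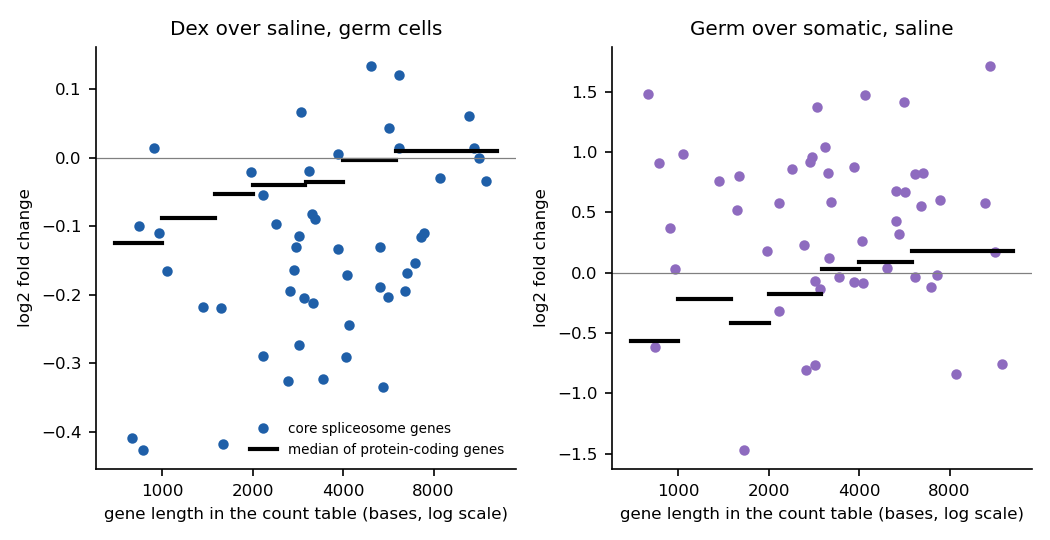
Log2 fold change of each spliceosome gene (points) against its length in the count table, on a log axis, for dex over saline in germ cells (left) and germ over somatic cells in saline (right). Black bars are the medians of protein-coding genes whose average log2 CPM was 5 or more, in 7 ranges of length. On the left, the 5 genes of 1000 bases or less have a median of -0.11 against -0.124 for the bar, the 11 genes of over 2000 and up to 3000 bases have a median of -0.164 against -0.0397 for the bar, and the 12 genes of over 6000 bases have -0.0312 against 0.0101.

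In somatic cells, dex against saline gave no call among the 50 genes, where 3.91% of the 16766 genes tested were called. The genes leaned slightly the other way: 31 were higher and 19 lower, with a median log2 fold change of 0.0177, beside -0.00664 over all genes. Only U2af2 had an unadjusted p at or under 0.05, where 16.1% of all genes did. It was at 255, 246 and 236 CPM with dex and 289, 297 and 277 CPM with saline. The groups did not overlap, and the log2 fold change was -0.19 (SE 0.074, adjusted p = 0.192), close to its value in germ cells. U2af1l4 was the other gene whose dex libraries all lay below the saline libraries (12.3% of all genes), at 0.714, 0 and 0.643 CPM against 1.33, 0.736 and 0.953 CPM. The direction of the whole list depended on the scaling, since by library totals 35 of the 50 genes were lower, with a median of -0.042 and 5 genes at an unadjusted p of 0.05 or less. By that scaling 10269 of all 16766 genes were lower, with a median of -0.066, and 2971 had such a p. Without saline somatic replicate 2 the median was -0.0201. Cell type markers moved in the same contrast: the 6 peritubular and stromal markers summed to 8280 to 9638 CPM with dex and 5043 to 6715 CPM with saline (6 higher, 4 called), and the 5 macrophage markers to 13.3 to 18.1 CPM and 33.5 to 62.6 CPM (5 lower, 3 called). The 6 Leydig markers were all lower, 1 of them called, with sums of 84.3 to 171.5 CPM with dex and 118.8 to 198.6 CPM with saline. Their part in the values of the spliceosome genes was not tested.

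The largest differences in somatic cells had wide errors. Snrpf was at 24.5, 19.1 and 21 CPM with dex and 21.3, 32.2 and 27 CPM with saline, a log2 fold change of -0.28 (SE 0.15, adjusted p = 0.39). Lsm8, Sf3b6 and Lsm3 had -0.22 (SE 0.15), -0.18 (SE 0.11) and -0.17 (SE 0.14). In the other direction, Snrpg was at 48.4, 58 and 51.3 CPM with dex and 46.5, 44.5 and 49.2 CPM with saline, a log2 fold change of 0.20 (SE 0.11, adjusted p = 0.419). Lsm7 had 0.16 (SE 0.14, adjusted p = 0.657) and Lsm10 0.15 (SE 0.18, adjusted p = 0.759). In all 7 of these genes the dex and saline libraries overlapped.

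Whether the dex effect differed between the populations was tested as a contrast over the 12 libraries, germ minus somatic. No gene of the 50 was called, where 0.827% of the 20551 genes tested were. The difference was negative for 36 of the 50, with a median of -0.105 beside 0.0339 over all genes (by library totals 31 and -0.0605, beside 0.0792), and 5 had an unadjusted p at or under 0.05, where 13.3% of all genes did. They were Lsm7 (-0.54, SE 0.21, adjusted p = 0.265), Snrpg (-0.39, SE 0.14, adjusted p = 0.24), Snrpd2 (-0.30, SE 0.12, adjusted p = 0.293), Snrpa (-0.28, SE 0.13, adjusted p = 0.354) and, with a positive difference, Lsm14a (0.29, SE 0.12, adjusted p = 0.324). For Prpf31 the difference was -0.27 (SE 0.14, adjusted p = 0.43), and for U2af2 it was 0.06 (SE 0.099, adjusted p = 0.893). All 8 Sm genes had a negative difference, and by library totals 7 did. With the correction for length, 45 of the 50 were negative, with a median of -0.155.

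Several of these genes share sequence with copies or overlap a neighbour, which bears on how reads were assigned. Snrpf shared 87.6% of its 64-base words with other transcripts, and 85.4% of its exon bases lie in exons of other genes, mostly Ccdc38 on the opposite strand. Its processed pseudogene Gm13092 held 42.3% as many counts as Snrpf itself. The pseudogene Gm10146 held 46.1% as many counts as Lsm7, and Gm10074 and Gm7846 together held more than Lsm5 itself, at 63.1% and 43.8%. In germ cells the log2 fold change of Gm10146 with dex was 0.037 (SE 0.19) and that of Gm13092 -0.25 (SE 0.21). Added to the counts of the gene, the pseudogenes brought the log2 fold change to -0.29 (SE 0.10, adjusted p = 0.176) for Lsm7, -0.37 (SE 0.18, adjusted p = 0.351) for Snrpf and -0.29 (SE 0.14, adjusted p = 0.384) for Lsm5, while that of Snrpd2 was -0.32 (SE 0.087, adjusted p = 0.0862). With all such counts added, 13 of the 49 genes had an unadjusted p at or under 0.05, all lower with dex. Of the 18541 genes tested, 1423 met that rule and were lower. Snrpn shared 24.5% of its words with other transcripts, chiefly Gm38393, and U2af1l4 shared 38.2%, chiefly with Gm49396, so the values of both are uncertain. No word of 17 of the 50 genes, among them Prpf6, Prpf8, Lsm8 and Snrpb, was found in transcripts of another gene.

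Spliceosome genes outside the symbol rule were counted in the same way. Of 59 other spliceosome genes, such as Snrnp70, Eftud2 and Dhx15, 45 were lower with dex in germ cells, with a median log2 fold change of -0.125 and none called, and 14 had an unadjusted p at or under 0.05 and were lower while 1 was higher. Of all genes tested, 50.4% were lower, and 7.69% had such a p and were lower. The lowest was Cwc22, with -0.66 (SE 0.25, adjusted p = 0.215). Its raw counts were 2870, 6710 and 7653 in dex germ and 8639, 5593 and 10346 in saline germ libraries. In somatic libraries they were 2308, 4410 and 9142 with dex and 7906, 7383 and 9609 with saline. Replicate 1 was thus the lowest in dex germ and in dex somatic cells. Within each treatment, the replicates ranked in the same order in germ and somatic cells. The cause was not tested. The highest was Mfap1b, with 0.85 (SE 0.30, adjusted p = 0.185), which has a near-identical copy in Mfap1a. Its raw counts were 524, 232 and 221 in dex germ and 183, 149 and 167 in saline germ libraries. In both genes dex germ library 1 was the most extreme. Of 19 genes of snRNP assembly, such as Smn1, Prmt5 and Coil, 12 were lower, with a median of -0.0514 and 3 at an unadjusted p of 0.05 or less, all lower. In somatic cells 27 of the 59 and 10 of the 19 were lower, with none called. Between populations in saline, 36 of the 59 were called germ-high and 11 somatic-high (39.8% and 36.7% of all genes), from -1.12 for the helicase Ddx39b to 1.94 for the helicase Dhx8. Of the 19, 10 were called germ-high and 1 somatic-high, with Gemin5 of the SMN complex at 2.11 (SE 0.088, adjusted p = 6.05e-10).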

How the data were processed

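Polyadenylated RNA of 12 libraries was sequenced. The authors aligned the reads with HISAT2 (2.0.5) to mm10 and counted them per gene with featureCounts (1.5.0-p3), per the submitters' processing notes, and deposited raw counts and FPKM per gene. The annotation release and the strand setting are not given in the sources used here. The deposited DESeq2 (1.20.0) tables of fold changes and p-values were not used. Here, counts were analysed in R (4.3.3) with edgeR (4.0.16): TMM scaling, filterByExpr with a minimum count of 10, and the quasi-likelihood test with Benjamini-Hochberg adjustment over all genes tested. DESeq2 (1.42.0) served as an alternative. CPM used TMM factors of the 12 libraries. Fits were also run on simulated data, and the outcome is not given here. Other settings changed the scaling, filter, test and samples, and a correction for gene length and the addition of pseudogene counts were chosen after seeing the data.

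Named genes were the largest differences in each comparison among those whose average log2 CPM was 2 or more, the highest and lowest FPKM of each subcomplex, and 17 set genes. The values of 1 gene by itself are not reported here, and it is counted in the totals. The members and lists were chosen with earlier results of these data known. Replicates were pools of litters, as above, and p-values measure the spread between them. The main fits of all comparisons, the difference of dex effects included, used group means only and paired no libraries. Deviations of same-numbered germ and somatic libraries in saline correlated (r = 0.129, 0.256 and 0.196 over 6474 genes). A fit paired by replicate number was therefore run as an alternative. In dex these deviations did not correlate (r = -0.0944, -0.13 and -0.0183). Whether same-numbered germ and somatic libraries came from the same pool is not given in the labels.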

Additional observations from a re-analysis of the deposited data

How the results depend on the processing

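No value called in the main fit changed direction under the other scalings, the length correction, the added pseudogene counts or the paired fit. U2af1, not called in saline at 0.033, was called at -0.211 with the length correction (adjusted p = 0.0196). Of the germ cell genes compared between dex and saline, 0 were called by edgeR, 3 by DESeq2 (Snrpd2, Prpf31, Lsm7) and 4 with no filter on low counts (Snrpd2, Snrpd3, Snrpf, Lsm7), and leaving out 1 library gave 0 to 2. Over all genes, edgeR called 231 of 18550, DESeq2 711 of 18548 and the fit without a filter 767 of 33910. With 1 library left out, 49 to 265 of the 19183 to 19358 genes tested were called. Leaving out 1 library gave 4 to 19 genes at an unadjusted p of 0.05 or less in germ cells, and 0 to 3 in somatic cells, where library totals gave 5. Over all genes, 2145 to 2825 of the 19183 to 19358 tested met that rule in germ cells. In somatic cells 2301 to 2636 of 17411 to 17576 did, and 2971 of 16766 with library totals. The somatic dex median moved to -0.042 with library totals and lay between -0.0201 and 0.042 with 1 library left out. The germ against somatic median in saline was 0.568 with DESeq2 size factors and with DESeq2, 0.609 with library totals, 0.52 with no filter, 0.574 with at least 10 counts in every library and 0.395 with the length correction, and 0.423 to 0.489 with 1 library left out. In dex it was 0.365, 0.365, 0.446, 0.333, 0.332 and 0.101 in the same order, and 0.241 to 0.372. The cause was not tested. With the replicate block, which pairs germ and somatic libraries of 1 number, 31 genes were called germ-high and 5 somatic-high in saline (7390 and 6767 of all 18870 genes). Snrpb (adjusted p = 0.0372) and Sf3b1 (0.0424) joined and U2af1l4 (0.111) left. Dex and saline libraries share only a number (germ libraries r = 0.215, -0.298 and -0.186, somatic libraries -0.0566, -0.0172 and -0.0449). For dex against saline in germ cells, the replicate block gave 0 called and 12 genes at an unadjusted p of 0.05 or less (65 and 2404 of all 18550 genes). Between germ and somatic cells in dex, Prpf19 (0.0818) and Sf3b1 (0.0659) lost their calls under it. Lsm5 lost its dex call without dex germ replicate 2 or 3, as given above. The standard errors of the 5 genes lowest with dex in germ cells ran from 0.0876 to 0.193.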
